A study of Homo sapiens with 8 samples.

Results

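The genes described here are those in which the effect of dG, so named in the labels, was compared between a pair of human acute myeloid leukaemia lines, KG1A and U937. For each gene the difference was the log2 fold change of dG against PBS in U937 minus that in KG1A, so a positive value means a more positive effect in U937. A gene entered when its mean level reached 4 CPM (counts scaled to the library total) over the 4 KG1A libraries and also over the 4 U937 libraries. This left 9922 of the 57992 genes in the count table, called the members below, all of them among the 18314 genes that were tested. Of the 8392 tested genes left out, 1461 were low in KG1A alone, 1325 in U937 alone and 5606 in both. The rule averaged PBS and dG libraries of a line, so a gene that was low in PBS could enter through its level in dG, as TRIM22, HES1 and IL1B did in U937, and one low in dG through its level in PBS. Just outside the threshold lay SMIM4, with a mean of 3.999 CPM in KG1A, and just inside lay ZNF324, with 4.001 CPM in U937. Of the 9918 members with a gene type in GENCODE 29, 8770 are protein-coding.

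The 4 groups held 2 libraries each: KG1A in PBS, KG1A in 10 mM dG, U937 in PBS and U937 in 10 mM dG. KG1A is an immature line with the progenitor antigen CD34 on its surface, while U937 cells are monoblasts. Both grew in RPMI medium with dialyzed serum, PBS was the vehicle, and mRNA was selected before sequencing. The length of the treatment is not given in the sources used here. Each line stands for 1 leukaemia, so the stage of maturation and all other ways in which the lines differ cannot be told apart. Nothing states that replicates came from separate cultures, so each p-value reflects only how far the libraries of a group lie apart, which may be technical. In bulk RNA, fewer cells of a type and less RNA per cell cannot be told apart.

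Deoxynucleosides taken up by a cell are phosphorylated by salvage kinases, and the resulting triphosphates are allosteric regulators of ribonucleotide reductase, the enzyme that makes deoxynucleotides from ribonucleotides. Myeloid leukaemic cells are held at an immature stage in which MYC, the transcription factor that drives ribosome and nucleotide synthesis, is usually high. Replication, glucose use, the endoplasmic reticulum and lysosomes can also change in cells under stress. The gene lists below cover these and other processes and were chosen with earlier results of these data known. Whether MYC or stress caused any change described below was not tested.

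Library totals ran from 21053724 to 31135338 counts, and members held 93.8% to 95.8% of them. Replicates correlated at 0.998 in each group, on the log2 CPM scale across members. Of 5 markers set down for KG1A, CD34 averaged 931 CPM in KG1A PBS and 0.265 CPM in U937 PBS, and CD7 and SPINK2 averaged 30.7 and 11.1 CPM in KG1A PBS. PROM1 and DNTT were near absent there, at 0.646 and 0.160 CPM, and DNTT was higher in U937 dG (3.30 CPM) than in either KG1A group. ELANE, PRTN3, AZU1, CTSG and CD33 lay between 50.5 and 499 CPM in U937 PBS and at most at 0.172 CPM in KG1A PBS. MPO, which encodes a primary granule enzyme and was set down as a U937 marker, was at most 0.199 CPM in any library, and CSF1R was at most 1.87 CPM, so those markers were absent or near absent. Of 10 markers of cells that the cultures should not hold, HBB, HBA1, EPCAM and KRT19 had no reads, while CD3E averaged 10.8 CPM in KG1A PBS and 21.4 CPM in KG1A dG. Mitochondrially encoded RNA took 9.12% to 9.83% of counts in the PBS libraries and 7.93% to 8.30% in the dG libraries of both lines.

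The effect of dG differed between the lines in most members. edgeR's quasi-likelihood test called the difference, at a Benjamini-Hochberg adjusted p below 0.05 over all genes tested, in 6442 members (64.9%), against 44.1% of all genes tested (17.6% more positive and 26.4% more negative). In the fit as designed, 2612 members (26.3%) had a more positive effect in U937 and 3830 (38.6%) a more negative one. That split depended on the size factors: with DESeq2's size factors it was 3303 to 3031, and with TMM factors referenced to a KG1A library it ran from 3472 to 2846 up to 3644 to 2671. Over 11 sets of size factors the median difference moved by -0.01 to 0.15 on the log2 scale, from -0.09 in the fit as designed, and 39.2% to 57.7% of calls were positive. Counts were also simulated with the same dG effect in both lines for most genes and 1 spread for all genes, unlike the data. There, TMM factors estimated as in this fit moved the median difference below 0, while the factors used to draw the counts did not. As the split depended on the size factors, the excess of negative calls is not read as a result. Without replicate 1 of U937 dG the split was 3208 to 2612, and without replicate 2 of U937 dG it was 3257 to 2550. Under each of the 11 sets, 2527 members (25.5%) were called more positive and 2671 (26.9%) more negative, and lists are described below by this count as well. The median standard error of a difference was 0.08. Standard errors do not include the choice of size factors, which moved the median difference by up to 0.15. A called difference of at least 1 on the log2 scale was found in 754 members (7.60%), 271 positive (2.73%) and 483 negative (4.87%), and one of at least 2 in 75.

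U937 responded more widely and more strongly than KG1A. The test of dG against PBS was passed by 6610 members (66.6%) in KG1A, 3659 higher (36.9%) and 2951 lower (29.7%), against 49.1% of all genes tested (29.6% higher and 19.6% lower). In U937 it was passed by 7992 members (80.5%), 3766 higher (38.0%) and 4226 lower (42.6%), against 64.0% of all genes tested (32.4% higher and 31.5% lower). The median absolute log2 fold change was 0.23 in KG1A and 0.38 in U937, and the SD across members was 0.40 and 0.64. Across the 9922 genes, which are not independent replicates, the effects in both lines correlated with a Pearson r of 0.50 and a Spearman rho of 0.53. The effects share no libraries, but they share size factors and the estimate of the spread.

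Of the 5557 members called in both lines, 4403 (79.2%) moved in the same direction, 2293 up and 2110 down. Among these the difference was called in 2591, with the larger effect in U937 in 2092 and in KG1A in 499. It was not called in 1812. The other 1154 members, 11.6% of all, were called in opposite directions, and the difference was called in each of them: 740 rose in KG1A and fell in U937, and 414 fell in KG1A and rose in U937. Under each of the 11 size factors, 730 members (7.36%) were called in opposite directions. A further 2435 members were called in U937 alone and 1053 in KG1A alone, but the difference itself was called in 1917 and 749 of these.

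**Figure D1:**
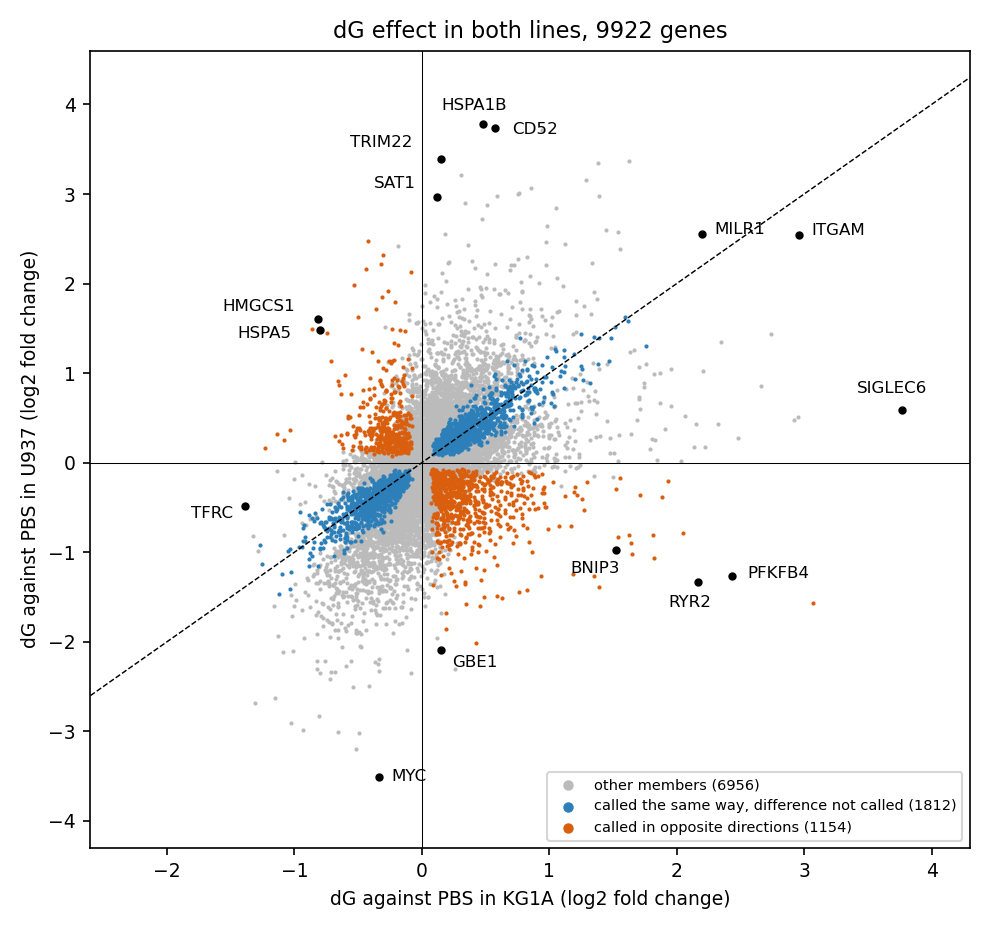
Log2 fold change of dG against PBS in KG1A (horizontal axis) and in U937 (vertical axis), 1 point per member. The dashed line marks equal effects, orange points are the 1154 members called in opposite directions, blue points are the 1812 called the same way with no called difference, and the vertical spread exceeds the horizontal one (SD 0.64 against 0.40).

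The 12 members with the largest positive differences held stress and signalling genes. HSPA1B (ENSG00000204388), which encodes an inducible HSP70 chaperone, lay at 3.51 and 3.56 CPM in KG1A PBS and at 4.98 and 4.88 CPM in KG1A dG. In U937 it went from 6.59 and 6.62 CPM in PBS to 90.1 and 91.4 CPM in dG. The U937 dG libraries stood far above the other 6, and the difference was 3.30 ± 0.17 (SE, adjusted p = 1.4e-18). HSPA1A is nearly identical in sequence, so how reads were divided between the pair is uncertain. The 250 bases before its start show the sequence to which heat shock factors are known to bind in such genes: 2 facing GAA units, searched as GAANNTTC on both strands and given in capitals. RefSeq's GRCh38.p14 table places it at chr6:31827488-31827737 on the plus strand.
HSPA1B: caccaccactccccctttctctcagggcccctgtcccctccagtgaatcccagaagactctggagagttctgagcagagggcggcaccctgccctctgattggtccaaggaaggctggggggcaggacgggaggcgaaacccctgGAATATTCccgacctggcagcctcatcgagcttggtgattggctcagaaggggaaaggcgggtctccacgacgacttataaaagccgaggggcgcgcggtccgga
GAANNTTC was found in 7 of the 16 heat shock chaperones with a promoter window and in 4.08% of members' windows. Of all 35116 windows of 300 bases (250 before to 50 after a start), 6.77% held it. A match in letters describes the window and is no evidence of binding. HSPA1B does not stand for its list. Of 31 heat shock chaperones, 7 were more positive and 12 more negative (7 and 9 under each size factor). Their median difference was -0.09, as over all members, and 20 fell in KG1A and 19 in U937.

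SAT1, the rate-limiting enzyme of polyamine breakdown, was at 47.7 and 47.6 CPM in KG1A PBS and at 51.2 and 52.1 CPM in KG1A dG. In U937 it stood at 111 and 114 CPM in PBS and at 892 and 871 CPM in dG. It rose in both lines, but the log2 fold change was 0.12 in KG1A and 2.97 in U937, and the difference was 2.85 ± 0.06 (edgeR adjusted p = 2.2e-30). GPNMB, a glycoprotein of lysosomes and macrophages, fell in KG1A from 10.9 and 10.6 to 9.17 and 8.11 CPM and rose in U937 from 813 and 823 to 4139 and 3994 CPM. The difference was 2.62 ± 0.09. Among the remaining genes, TRIM22, an interferon-induced antiviral protein, differed by 3.24 ± 0.14. CD52, a surface glycoprotein of leukocytes, differed by 3.16 ± 0.12. SOCS3, a feedback inhibitor of cytokine receptors, differed by 2.90 ± 0.22 and NR1D1, a nuclear receptor of the circadian clock, by 2.90 ± 0.16. HES1, a transcriptional repressor downstream of Notch, differed by 2.78 ± 0.17 and GADD45B, a stress-induced signalling protein, by 2.56 ± 0.08. CYB561A3 and PLD6 had differences of 2.60 and 2.54. TRIM22, CD52, SOCS3, HES1 and GADD45B rose in both lines and by more in U937, while NR1D1, CYB561A3 and PLD6 fell in KG1A and rose in U937.

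The largest negative differences were led by PFKFB4, an enzyme that sets the level of the main activator of glycolysis. PFKFB4 (ENSG00000114268) rose in KG1A from 5.25 and 4.86 CPM to 27.7 and 26.8 CPM. In U937 it fell from 116 and 118 CPM to 48.7 and 48.5 CPM. The groups did not overlap within either line, and the difference was -3.70 ± 0.10 (edgeR adjusted p = 6.3e-27). MYC lay at 518 and 513 CPM in KG1A PBS and at 416 and 402 CPM in KG1A dG. In U937 it went from 228 and 227 CPM to 20.8 and 19.1 CPM. MYC therefore fell in both lines, by 0.33 on the log2 scale in KG1A and by 3.51 in U937, and the difference of -3.17 ± 0.06 (edgeR adjusted p = 4.6e-31) lay between -3.18 and -3.03 over the 11 size factors.

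SIGLEC6, a sialic acid receptor, rose in KG1A from 0.824 and 0.924 CPM to 11.9 and 12.2 CPM and in U937 from 108 and 109 CPM to 163 and 165 CPM, a difference of -3.18 ± 0.16. RYR2, a calcium release channel, differed by -3.50 ± 0.16 and LTBP1, a binding protein of latent TGF-beta, by -2.88 ± 0.16. PDE9A, a cyclic GMP phosphodiesterase, differed by -2.83 ± 0.13 and NCAM1, an adhesion molecule, by -2.66 ± 0.15. NFE2, a transcription factor of platelet and red cell precursors, differed by -2.62 ± 0.11 and ETV5, an ERK-responsive ETS factor, by -2.62 ± 0.09. RYR2, LTBP1, PDE9A, NCAM1, NFE2 and ETV5 each rose in KG1A and fell in U937. PRMT6, an arginine methyltransferase of histones, fell in KG1A from 58.7 and 57.0 to 41.1 and 39.5 CPM and in U937 from 14.1 and 13.2 to 0.992 and 2.04 CPM. Its difference was -2.68 ± 0.18, near that of MIR17HG, the host transcript of a microRNA cluster and a MYC target, at -2.52 ± 0.24, and of MAP10, at -2.56 ± 0.18. Of the 24 genes with the largest differences, 12 had a mean under 4 CPM in at least 1 of the 4 groups, where fold changes rest on few counts. Over all members 378 had such a group, and 65.1% of those were called, against 64.9% of the other 9544.

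**Figure D2:**
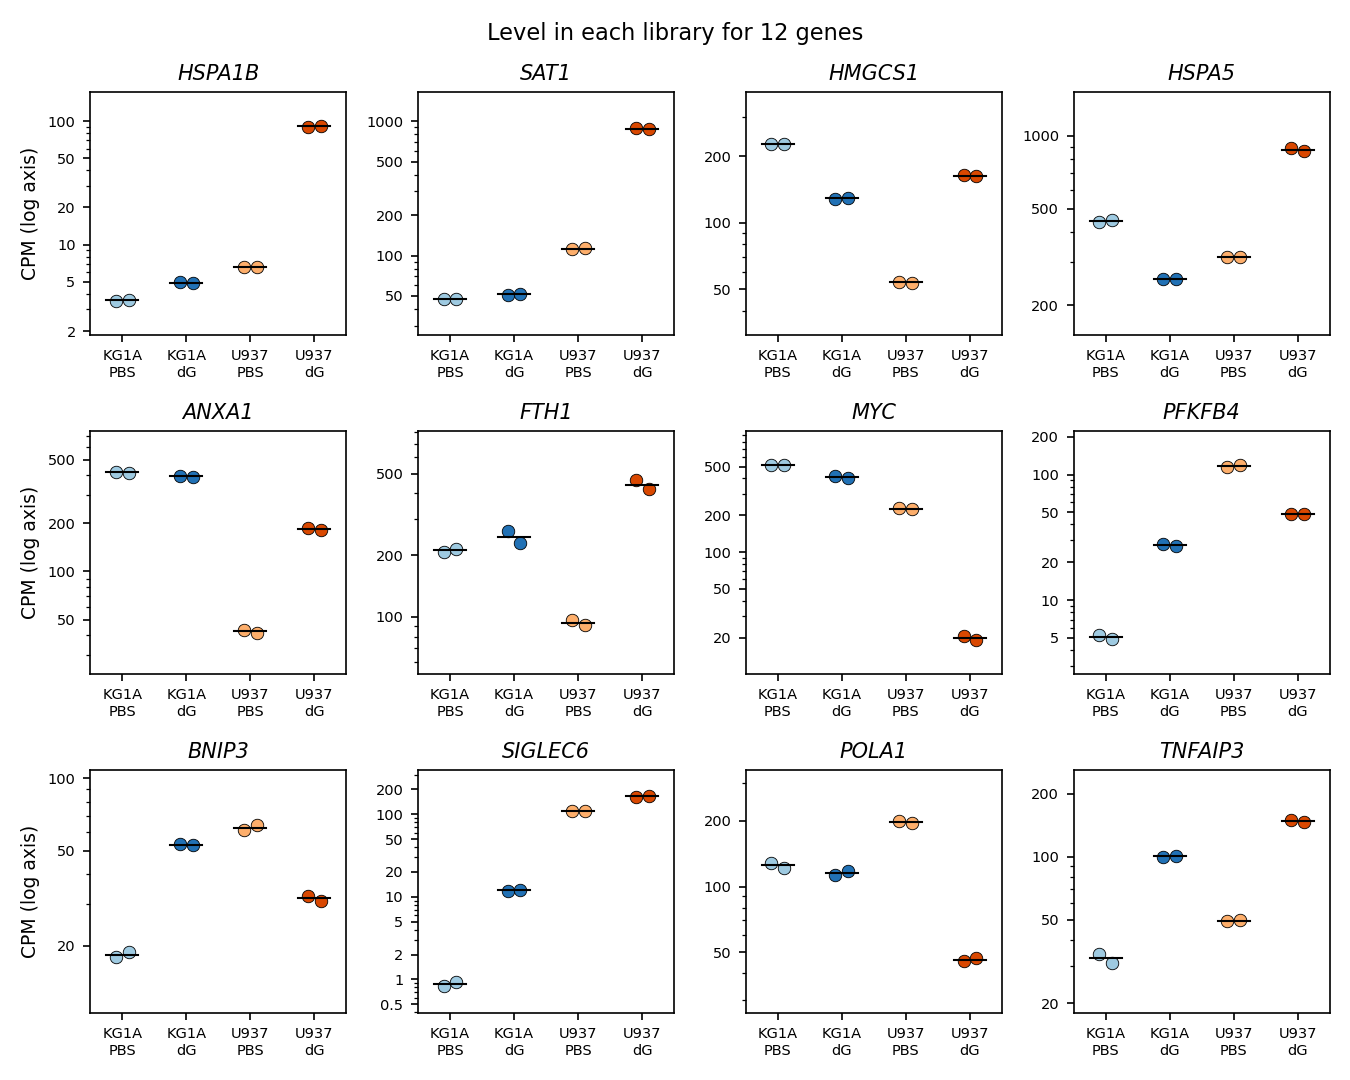
CPM of 12 genes in each of the 8 libraries (points) with the group mean (bar), on log axes that differ between panels. HSPA1B to FTH1 have positive differences, MYC to POLA1 negative ones, and TNFAIP3 has effects of 1.62 in KG1A and 1.58 in U937 that did not differ past the threshold.

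Partners and competitors of MYC had mostly more positive effects in U937. MYC works as a dimer with MAX, and MXD1, MXD4, MNT and MXI1 compete for MAX and repress the same genes. Of 10 measured members of the network, 6 had a more positive effect in U937 under each size factor and MYC alone a more negative one. MAX rose in both lines, with a difference of 0.23 ± 0.06 that was 0.37 without replicate 1 and 0.35 without replicate 2 of U937 dG. MXD4 lay at 32.9 and 30.99 CPM in KG1A PBS and at 31.4 and 28.98 CPM in KG1A dG, while in U937 it rose from 7.94 and 6.82 to 18.2 and 17.9 CPM (difference 1.36 ± 0.12). MNT differed by 0.92 ± 0.11 and MXD1, which rose in both lines, by 0.81 ± 0.10.

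Ribosome biogenesis factors fell in both lines and further in U937. Of 128 members, 117 fell in KG1A and 118 in U937, and the difference was called negative in 105 and positive in 7 (89 and 7 under each size factor). The median log2 fold change was -0.43 in KG1A and -1.02 in U937, and the median difference was -0.55 against -0.09 over all members. GPATCH4, a nucleolar protein, fell in KG1A from 64.9 and 61.9 CPM to 30.1 and 32.1 CPM and in U937 from 54.2 and 54.1 CPM to 7.03 and 7.47 CPM, a difference of -1.87 ± 0.10. BOP1, which processes the large subunit's RNA, differed by -1.99 ± 0.09 and RPP40, a subunit of RNase P and MRP, by -1.56 ± 0.15. UTP14A, part of the small subunit processome, fell in KG1A from 40.9 and 43.5 CPM to 27.8 and 28.3 CPM and in U937 from 50.8 and 49.2 CPM to 10.99 and 9.70 CPM, a difference of -1.68 ± 0.10. Its promoter is shown because it carries, in capitals, the E-box CACGTG to which MYC and MAX bind. The 250 bases before its start are chrX:129905914-129906163 on the plus strand (RefSeq, GRCh38.p14).
UTP14A: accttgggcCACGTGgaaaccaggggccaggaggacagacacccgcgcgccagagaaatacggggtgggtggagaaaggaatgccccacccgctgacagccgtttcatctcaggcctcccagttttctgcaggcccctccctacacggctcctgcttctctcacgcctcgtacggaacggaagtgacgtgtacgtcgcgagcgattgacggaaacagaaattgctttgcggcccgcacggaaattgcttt
CACGTG, which reads the same on both strands, was found in 32 of 87 ribosome biogenesis promoters (36.8%), in 11.6% of the 5068 members with a window and in 7.26% of all windows. Lists with other patterns also held it more often than all members did, such as hypoxia targets (30.8%) and lysosomal genes (28%). Glycolysis genes held it less often (8.33%). GPATCH4, BOP1 and the other factors without a printed window are named only.

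Other lists of protein synthesis had smaller median differences, also negative. Over all members the median was -0.09, with 38.6% more negative and 26.3% more positive (26.9% and 25.5% under each size factor). Of 76 cytosolic ribosomal protein genes, 48 were called more negative in U937 and 8 more positive, but only 26 and 8 under each size factor, and the median difference was -0.20. RPL17, whose reads can be divided with overlapping and copied loci, went against this, falling in KG1A and rising in U937 (1.73 ± 0.17). Mitochondrial ribosomal proteins had 34 of 73 more negative and 10 more positive (25 and 10 under each size factor). A difference was called in 60.3% of them, against 64.9% of all members. Of 23 cytosolic tRNA synthetases, 17 were more negative and 3 more positive (15 and 2 under each size factor), with LARS, the leucine enzyme, at -1.01 ± 0.05. LARS rose in KG1A and fell in U937. In the list of protein arginine and tRNA methyltransferases, 24 of 36 were more negative and 2 more positive (19 and 2 under each size factor). WDR4, a subunit of the tRNA m7G methyltransferase, differed by -2.04 ± 0.15, and PUS7, a pseudouridine synthase, by -1.97 ± 0.09. The 14 members of the CCT chaperonin and prefoldin, which fold actin and tubulin, fell in 12 cases in KG1A and in 10 in U937, with 8 differences negative and 3 positive, 5 and 3 under each size factor.

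De novo purine synthesis, the route that builds IMP and from it AMP and GMP, fell further in U937. The difference was called negative in 10 of 12 members and positive in none, also under each size factor, with a median of -0.69. PFAS, which catalyses the formylglycinamidine step, went in KG1A from 47.1 and 48.8 CPM to 36.5 and 39.3 CPM. In U937 it went from 46.6 and 49.4 CPM to 10.3 and 9.90 CPM. The lines had like levels in PBS and separate levels in dG, and the difference was -1.90 ± 0.10 (edgeR adjusted p = 1.2e-18). PAICS differed by -1.32 ± 0.05, ADSL by -1.20 ± 0.07 and IMPDH2, the rate-limiting enzyme of GMP synthesis, by -0.89 ± 0.05. PRPS1 and IMPDH1 had differences of -0.12 and 0.08 that were not called. In purine salvage, HPRT1, which recycles hypoxanthine and guanine, differed by -0.87 ± 0.06, and PNP, which cleaves guanosine and deoxyguanosine, by -0.38 ± 0.07 (-0.22 without replicate 2 of U937 dG, and not called in RPKM with no filter, limma adjusted p = 0.0666). PNP fell in U937 from 71.3 and 73.5 CPM to 60.4 and 58.5 CPM, and its change in KG1A was not called. ADA, adenosine deaminase, rose in KG1A from 188 and 202 to 274 and 258 CPM and fell in U937 from 147 and 151 to 130 and 128 CPM.

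Genes of deoxynucleotide synthesis and salvage differed both ways, as did all members (38.6% more negative, 26.3% more positive). Of 27 members, 13 had a more negative effect in U937 and 8 a more positive one, 11 and 8 under each size factor, with a median of -0.10 against -0.09 over all members. RRM1, the large subunit of ribonucleotide reductase, was at 251 and 259 CPM in KG1A PBS and at 296 and 291 CPM in KG1A dG. In U937 it went from 327 and 327 CPM to 225 and 212 CPM. RRM1 thus rose in KG1A and fell in U937, with a difference of -0.79 ± 0.05. RRM2, the small subunit of cycling cells, rose in both lines, from 323 and 315 to 524 and 519 CPM in KG1A and from 548 and 561 to 769 and 760 CPM in U937. Its difference was -0.25 ± 0.04 (edgeR adjusted p = 1.0e-05), but without replicate 2 of U937 dG it was -0.11 with an adjusted p of 0.0964, and over the 11 size factors it ran from -0.26 to -0.10. TYMS, thymidylate synthase, rose in KG1A and fell in U937, and its difference was -0.84. Among the 8 more positive genes were SLC29A3, a nucleoside transporter of lysosomes, at 2.07 ± 0.16, SAMHD1, a deoxynucleotide triphosphohydrolase, at 0.67, DGUOK, the mitochondrial deoxyguanosine kinase, at 0.48, and DCK, the cytosolic deoxycytidine kinase, at 0.31.

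DNA replication genes parted between the lines. Of 57 members, 26 rose and 14 fell in KG1A, while 7 rose and 46 fell in U937. The difference was called negative in 52 and positive in 3, 41 and 3 under each size factor, and 18 members (8 under each size factor) were called in opposite directions. The median was 0.04 in KG1A and -0.46 in U937. POLA1, the catalytic subunit of the primase polymerase, fell in KG1A from 128 and 122 CPM to 112 and 118 CPM and in U937 from 199 and 195 CPM to 45.4 and 47.0 CPM, a difference of -1.98 ± 0.06. POLE, the leading-strand polymerase, rose in KG1A from 178 and 177 to 313 and 308 CPM and fell in U937 from 108 and 112 to 76.4 and 84.4 CPM (-1.26 ± 0.06). PRIM1, a primase subunit, and TIPIN, a fork protection factor, differed by -1.30 ± 0.08 and -1.41 ± 0.11. The helicase subunits MCM2 to MCM7 had differences of -0.91 (MCM3) to -0.56 (MCM6). The exceptions were DBF4, which activates the CDC7 kinase, at 0.70, POLA2 at 0.28 and ORC6 at 0.28.

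Mitotic genes differed less. Of 72 members, 65 rose in KG1A and 52 in U937, with medians of 0.40 and 0.28. The difference was called negative in 36 and positive in 7, but in 22 and 7 under each size factor, and its median was -0.14 against -0.09 over all members. CKS2, a cyclin-dependent kinase subunit, had the largest difference of the list in either direction, at 1.11 ± 0.07, falling in KG1A and rising in U937. HMMR and NCAPH, a spindle protein and a condensin subunit, rose in KG1A and fell in U937 (-0.88 ± 0.06 and -0.91 ± 0.05). Of 25 genes of the G1/S transition, 14 were more negative in U937 and 2 more positive (11 and 2 under each size factor), the former including CCND2, cyclin D2, at -1.03 ± 0.06. Of 58 genes of the DNA damage checkpoint and repair, 36 were more negative and 7 more positive (24 and 7 under each size factor). XRCC2, a factor of homologous recombination, rose in KG1A from 40.1 and 40.2 to 49.0 and 52.6 CPM and fell in U937 from 57.7 and 59.3 to 22.03 and 23.7 CPM, a difference of -1.70 ± 0.08. Of 22 p53 targets, 9 were more positive and 5 more negative (9 and 4 under each size factor). GADD45B led the former at 2.56 ± 0.08, followed by RPS27L, a ribosomal protein homologue that fell in KG1A and rose in U937, at 0.75 ± 0.07. AEN, an apoptotic nuclease that fell in both lines, differed by -1.28 ± 0.11, and BTG2, an antiproliferative gene that rose in both, by -0.86 ± 0.12.

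**Figure D3:**
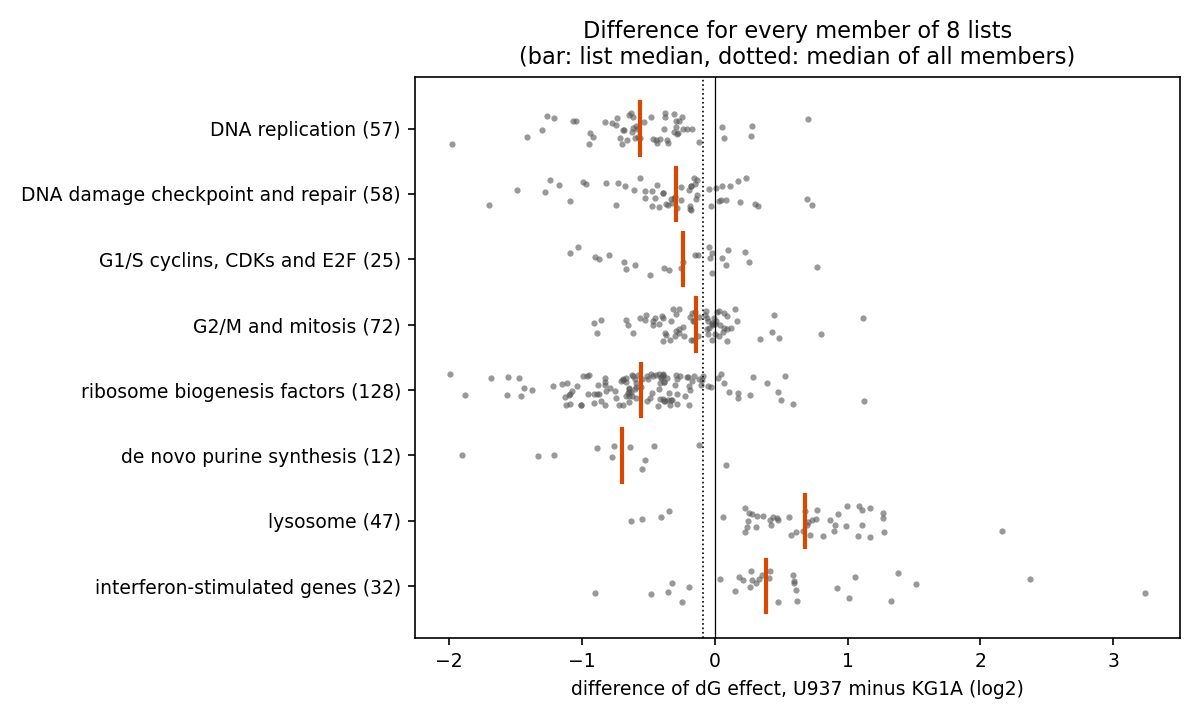
Difference of the dG effect (U937 minus KG1A, log2) for each member of 8 lists (points), with the list median (orange bar) and the median of all members (dotted line, -0.09). DNA replication (median -0.56) lies further to the left than mitotic genes (-0.14), and lysosomal genes (0.68) lie to the right.

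Glycolysis rose in KG1A and fell in U937. Of 23 members, 16 rose in KG1A and 20 fell in U937, and 13 were called in opposite directions (10 under each size factor). The difference was called negative in 21 and positive in none (20 and none under each size factor), and its median of -1.04 was the lowest of the lists with 10 or more members. HK2, a hexokinase that traps glucose, rose in KG1A from 134 and 124 CPM to 225 and 221 CPM and fell in U937 from 431 and 424 CPM to 281 and 277 CPM, a difference of -1.41 ± 0.05. SLC16A3, a lactate exporter, rose in KG1A and fell in U937 (-1.73 ± 0.09). ENO2, an enolase, rose in both lines but by 1.83 in KG1A and 0.25 in U937. LDHA, which makes lactate, was at 923 and 922 CPM in KG1A PBS and at 897 in both KG1A dG libraries, a change that was not called. In U937 it fell from 1032 and 1016 CPM to 412 and 397 CPM, a difference of -1.30 ± 0.04 (edgeR adjusted p = 4.4e-24). The exceptions were PFKFB3, which rose in both lines, and PDK3.

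The measured hypoxia targets outside glycolysis mostly rose in KG1A and moved both ways in U937. Of 39 listed genes 27 were members. Of these, 23 rose and none fell in KG1A, while 11 rose and 14 fell in U937. A gene low in PBS could enter by rising in dG, as ADM did in KG1A, so the counts of genes that rose are partly set by the level rule. The difference was negative in 19 and positive in 6 (17 and 6 under each size factor), with 12 members in opposite directions (10 under each size factor) and a median of -0.73. BNIP3, a mitophagy receptor, rose in KG1A from 17.9 and 18.8 CPM to 53.2 and 52.7 CPM and fell in U937 from 60.7 and 63.6 CPM to 32.2 and 30.9 CPM. The levels crossed, and the difference was -2.50 ± 0.08 (edgeR adjusted p = 6.7e-24). Its pseudogene BNIP3P1 went from 7.499 and 7.42 to 19.9 and 19.1 CPM in KG1A and from 26.8 and 25.8 to 9.92 and 10.2 CPM in U937, so how reads were divided between the pair is uncertain. P4HA1, a collagen prolyl hydroxylase, rose in KG1A from 67.1 and 67.2 CPM to 193 CPM in both dG libraries and fell in U937 from 319 and 314 CPM to 264 and 254 CPM (-1.81 ± 0.05). ADM, the peptide hormone adrenomedullin, rose in both lines, from 2.51 and 2.77 to 19.8 and 20.6 CPM in KG1A and from 24.1 and 25.04 to 32.7 and 35.6 CPM in U937 (-2.45 ± 0.14). GBE1, the glycogen branching enzyme, fell in U937 from 500 and 506 CPM to 121 and 114 CPM, and rose by 0.15 in KG1A. Among the 6 exceptions, VEGFA, the vascular growth factor, rose by 1.11 in KG1A and by 1.98 in U937, and HIF1A, a subunit of the hypoxia factor itself, by 0.38 and 0.64.

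The promoter of BNIP3 shows, in capitals, the core ACGTG that hypoxia factors recognise. It was searched on both strands, and here 1 palindromic CACGTG gives a match on each. The 250 bases before the start are chr10:131981924-131982173 on the minus strand (RefSeq, GRCh38.p14), and the match begins at position -134 from the start.
BNIP3: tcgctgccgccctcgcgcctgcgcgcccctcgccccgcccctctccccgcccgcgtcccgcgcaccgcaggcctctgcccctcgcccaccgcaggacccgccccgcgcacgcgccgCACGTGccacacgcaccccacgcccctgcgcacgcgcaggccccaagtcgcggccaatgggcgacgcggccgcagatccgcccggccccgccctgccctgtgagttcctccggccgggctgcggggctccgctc
ACGTG was found in 10 of 13 windows of hypoxia targets (76.9%) and in 5 of 12 of glycolysis genes (41.7%), against 30.5% of members and 21.4% of all windows. It was also frequent in some lists with other patterns, in 50.6% of ribosome biogenesis windows, 40% of lysosomal and 36.4% of ER chaperone ones. These shares lay below that of hypoxia targets and around that of glycolysis genes. ACGTG lies within every CACGTG, so the counts of these motifs overlap.

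Chaperones of the endoplasmic reticulum moved the other way. These genes fold secreted proteins and are induced by the unfolded protein response, in which ATF6, ERN1 and EIF2AK3 sense misfolding and ERN1 splices the mRNA of the transcription factor XBP1. Of 32 members, 10 rose and 15 fell in KG1A, while 29 rose and none fell in U937. The difference was positive in 28 and negative in 2, also under each size factor, with 15 members in opposite directions (13 under each size factor). Its median of 0.83 was the highest of the lists with 10 or more members. HSPA5, the main luminal chaperone BiP, fell in KG1A from 443 and 448 CPM to 257 CPM in both dG libraries and rose in U937 from 315 CPM in both PBS libraries to 893 and 865 CPM. KG1A had the higher level in PBS and U937 the higher in dG, and the difference was 2.28 ± 0.04 (edgeR adjusted p = 1.1e-30). SDF2L1, a cofactor of BiP, fell in KG1A from 10.8 and 11.7 to 5.55 and 4.68 CPM and differed by 1.45 ± 0.17. DNAJB9, another BiP cofactor, rose in both lines, from 6.55 and 6.36 to 8.67 and 8.52 CPM in KG1A and from 10.5 and 10.9 to 49.0 and 47.2 CPM in U937 (1.75 ± 0.13). PPP1R15A, which restores translation after stress, rose in both lines and differed by 1.86 ± 0.08.

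The promoter of HSPA5 is shown because it holds the full ER stress response element, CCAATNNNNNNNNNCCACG, in capitals. The 250 bases before the start are chr9:125241344-125241593 on the minus strand (RefSeq, GRCh38.p14), and the match begins at position -66.
HSPA5: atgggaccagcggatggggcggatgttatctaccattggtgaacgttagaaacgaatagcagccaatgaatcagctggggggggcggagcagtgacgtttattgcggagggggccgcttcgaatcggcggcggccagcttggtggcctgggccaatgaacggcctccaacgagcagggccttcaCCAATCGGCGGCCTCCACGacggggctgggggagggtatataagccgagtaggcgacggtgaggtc
This element, searched on both strands, was found in 4 of 22 windows of the list (18.2%), in 0.217% of members' windows and in 0.0769% of all windows.

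Cholesterol synthesis and uptake, the target set of the SREBP factors, also fell in KG1A and rose in U937. Of 25 members, 17 fell and 5 rose in KG1A, while 20 rose and 2 fell in U937. The difference was positive in 22 and negative in 3 (21 and 2 under each size factor), with 13 in opposite directions (11 under each size factor) and a median of 0.63. HMGCS1, which makes the precursor of mevalonate, fell in KG1A from 227 and 226 CPM to 128 and 129 CPM and rose in U937 from 53.8 and 53.5 CPM to 164 and 162 CPM. Here too the order of the lines was exchanged by dG, and the difference was 2.42 ± 0.05 (edgeR adjusted p = 4.8e-29). MSMO1, a sterol oxidase, fell in KG1A from 46.2 and 44.5 CPM to a mean of 31.3 CPM and rose in U937 from 43.1 and 42.97 CPM to 174 and 168 CPM, a difference of 2.52 ± 0.07. PMVK was an exception, with a fall in both lines that was larger in U937. HMGCS1 has no printed promoter.

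**Figure D4:**
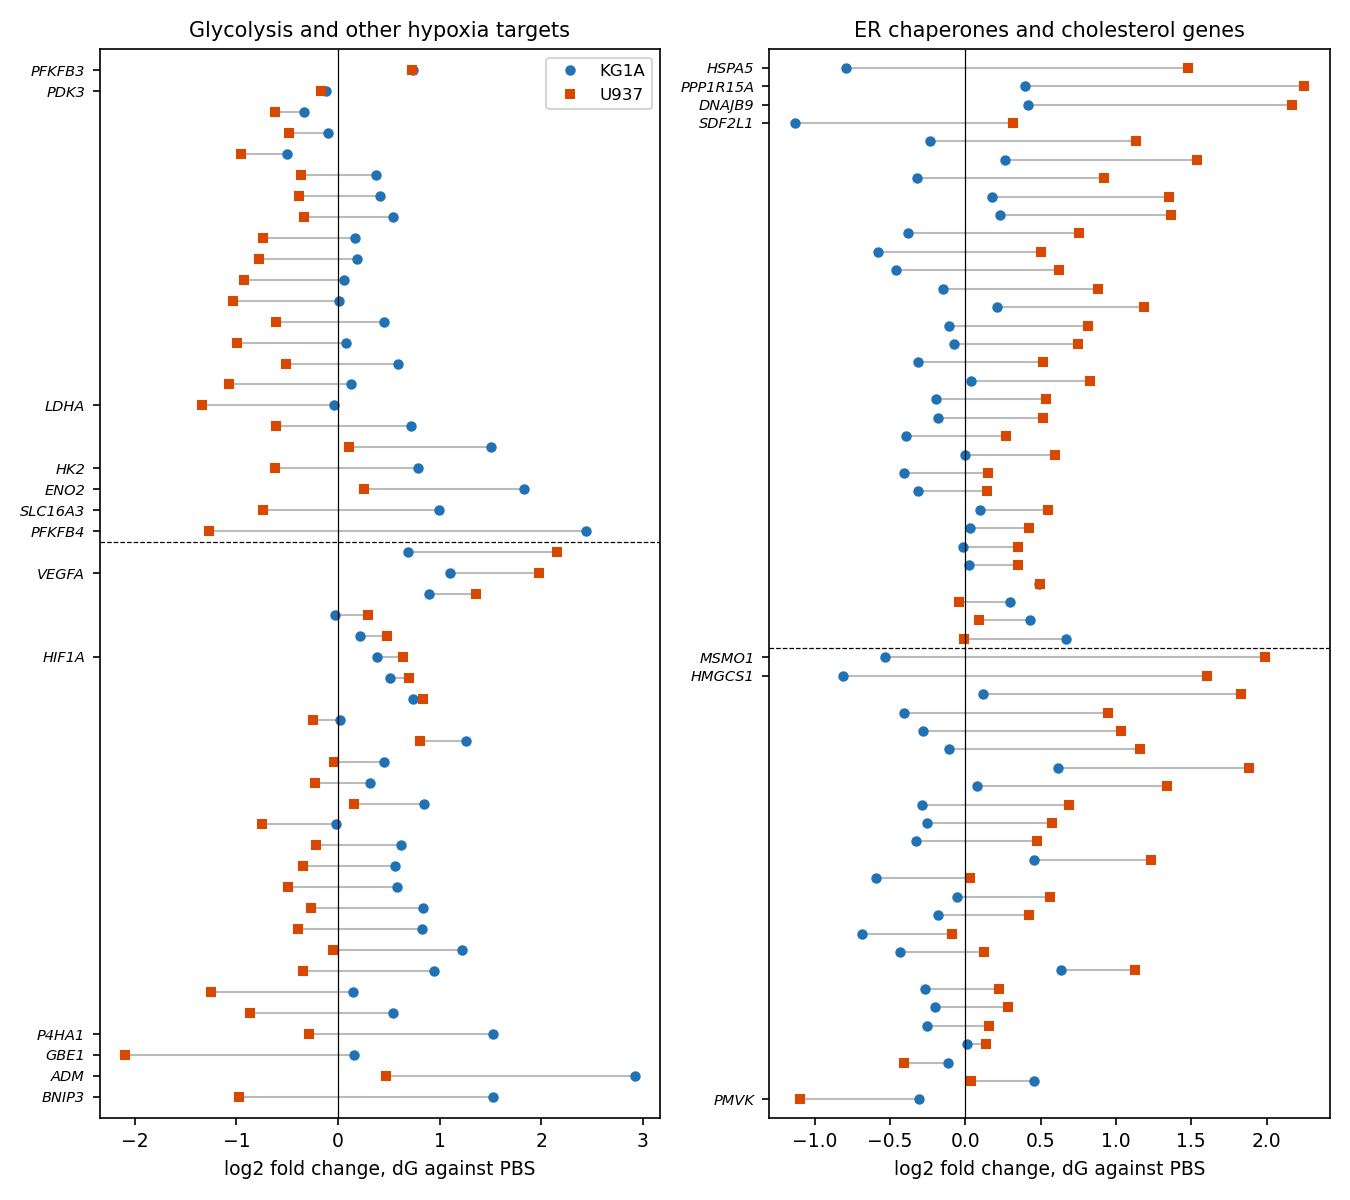
Log2 fold change of dG against PBS in KG1A (blue circles) and U937 (orange squares) for each member, with names given for the genes described in the text. The left panel holds glycolysis (above the dashed line) and other hypoxia targets (below it), and the right panel holds ER chaperones (above) and cholesterol genes (below). Most lines run to the left from KG1A to U937 in the left panel and to the right in the right panel.

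Lysosomal genes rose in both lines and by more in U937. Of 58 listed genes 47 were members. Of these, 31 rose in KG1A and 44 in U937, and none fell in U937. The difference was positive in 40 and negative in 4, also under each size factor, with a median of 0.68. FUCA1, an alpha-fucosidase, fell in KG1A from 12.3 and 11.5 CPM to 8.78 and 10.3 CPM and rose in U937 from 45.8 and 48.4 CPM to 173 and 164 CPM, a difference of 2.16 ± 0.11. NPC1, which exports cholesterol from the lysosome, rose in both lines, to 58.3 and 54.8 CPM in KG1A dG and to 690 and 705 CPM in U937 dG (1.27 ± 0.06). GLB1, the lysosomal beta-galactosidase, differed by 1.28 ± 0.06, CTSD, cathepsin D, by 0.91, and PSAP, the precursor of the saposins, by 1.08. CTSS, IDS and LAPTM5, which rose in both lines, were among the 4 with a more negative effect in U937. Of 13 iron genes, 8 differences were positive and 2 negative (8 and 1 under each size factor). FTH1, the ferritin heavy chain, was at 206 and 215 CPM in KG1A PBS, 261 and 228 CPM in KG1A dG, 96.0 and 91.4 CPM in U937 PBS and 465 and 419 CPM in U937 dG (2.02 ± 0.07). FTL, the light chain, changed by 0.06 in KG1A and by 1.56 in U937, though copies of both ferritin genes elsewhere in the genome make their read counts uncertain. TFRC, the transferrin receptor that imports iron, fell in KG1A from 1025 and 1005 CPM to 388 and 389 CPM and in U937 from 220 and 219 CPM to 157 CPM in both dG libraries, so that its difference of 0.90 ± 0.05 marks a larger fall in KG1A.

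The measured interferon-stimulated genes mostly had a more positive effect in U937. Of 56 listed genes 32 were members. Of these, 25 rose and none fell in KG1A, and 27 rose and 3 fell in U937. Over all members 36.9% rose in KG1A and 38.0% in U937. A gene low in PBS could enter by rising in dG, as TRIM22 did in U937. The counts of genes that rose are therefore partly set by the level rule and are not read as a result. The difference was positive in 23 and negative in 6 (22 and 3 under each size factor), with a median of 0.39. IFI6, an antiviral protein of mitochondria and ER, rose in KG1A from 8.80 and 9.41 CPM to 13.2 and 12.8 CPM and in U937 from 20.7 and 21.8 CPM to 158 and 154 CPM, a difference of 2.37 ± 0.11. TRIM22 was at 50.6 and 50.5 CPM in KG1A PBS and at 54.8 and 57.8 CPM in KG1A dG, against 1.51 and 1.71 CPM in U937 PBS and 16.6 and 17.0 CPM in U937 dG. PARP14 and SAMD9L differed by 1.38 ± 0.06 and 1.51 ± 0.15. IFI6 is shown for its promoter, which holds the core of the interferon-stimulated response element, 2 TTTC units with 2 bases between them, 3 times on the reverse strand, where TTTC reads as GAAA (capitals). The 250 bases before its start are chr1:27672193-27672442 on the minus strand (RefSeq, GRCh38.p14).
IFI6: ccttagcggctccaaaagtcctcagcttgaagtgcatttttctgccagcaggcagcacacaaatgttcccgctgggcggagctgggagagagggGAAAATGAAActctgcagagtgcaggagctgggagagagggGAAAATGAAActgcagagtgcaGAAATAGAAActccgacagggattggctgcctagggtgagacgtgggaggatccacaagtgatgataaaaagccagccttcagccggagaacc
The core, searched on both strands, was found in 13 of 17 windows of the list (76.5%), in 2.84% of members' windows and in 3.57% of all windows.

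Antigen presentation on MHC class I went the same way. Of 17 members, 14 had a more positive effect in U937 and 3 a more negative one (14 and 2 under each size factor), with a median of 0.52. TAPBP, tapasin, and CALR, calreticulin, differed by 0.84 ± 0.05 and 0.83 ± 0.04. TAP2, PSMB8 and NLRC5 were the exceptions. NLRC5, the transactivator of these genes, rose in KG1A from 109 and 107 CPM to 205 and 204 CPM, while in U937 it lay at 29.2 and 30.3 CPM in PBS and at 28.6 CPM in both dG libraries (-0.98 ± 0.07). Of 38 NF-kB subunits and targets 26 were members. Of these, 13 were more positive in U937 and 5 more negative (12 and 3 under each size factor). The level rule admits genes low in PBS that rose in dG, as IL1B did in U937. IL1B, a cytokine, rose from 43.8 and 44.9 to 92.3 and 92.6 CPM in KG1A and from 1.00 and 1.24 to 8.45 and 7.42 CPM in U937 (1.78 ± 0.18). NFKBIA, the inhibitor of NF-kB, rose in U937, was not called in KG1A and differed by 1.29 ± 0.09. Of 27 immediate early genes 14 were members. Of these, 8 were more positive and 4 more negative (8 and 2 under each size factor), the former including ATF3 at 1.84 ± 0.21 and KLF6 at 1.48 ± 0.06.

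Of 21 ERK feedback genes 11 were members, and all 11 were called higher in KG1A and 7 in U937. Over all members 36.9% rose in KG1A and 38.0% in U937. A gene low in PBS could enter by rising in dG, so these counts are partly set by the level rule and are not read as a result. DUSP6, the phosphatase that switches ERK off, rose in KG1A from 137 and 136 CPM to 316 and 321 CPM and fell in U937 from 38.3 and 36.6 CPM to 28.4 and 30.1 CPM, a difference of -1.58 ± 0.07. ETV5 rose in KG1A from 15.0 and 17.3 to 42.7 and 40.1 CPM and fell in U937 from 60.6 and 60.1 to 24.9 and 25.2 CPM. MAFF, a small Maf factor, went against them, at 1.46 ± 0.17. Over the list, 6 differences were negative and 4 positive, 5 and 3 under each size factor.

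Subunits of the respiratory chain differed by the genome that encodes them. Of 74 nuclear genes for respiratory chain subunits, 61 fell in KG1A and 37 in U937, and 40 differences were positive and 7 negative (38 and 2 under each size factor), with a median of 0.21. NDUFA1, a complex I subunit, fell in KG1A from 66.8 and 68.3 to 59.1 and 55.3 CPM and rose in U937 from 73.5 and 73.9 to 126 and 124 CPM (1.00 ± 0.06). Of the 13 mRNAs encoded in mitochondria, 8 differences were negative and 2 positive (7 and 2 under each size factor), with a median of -0.29. MT-CYB fell in KG1A from 7915 and 8048 CPM to 7084 and 7321 CPM and in U937 from 3496 and 3565 CPM to 1309 and 1254 CPM, a difference of -1.31 ± 0.04. MT-ND5 at 0.34 and MT-ND4 at 0.12 were the 2 positive ones. The kit selects poly(A) RNA, so a change in the tails of these short-tailed transcripts and a change in their amount cannot be told apart.

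**Figure D5:**
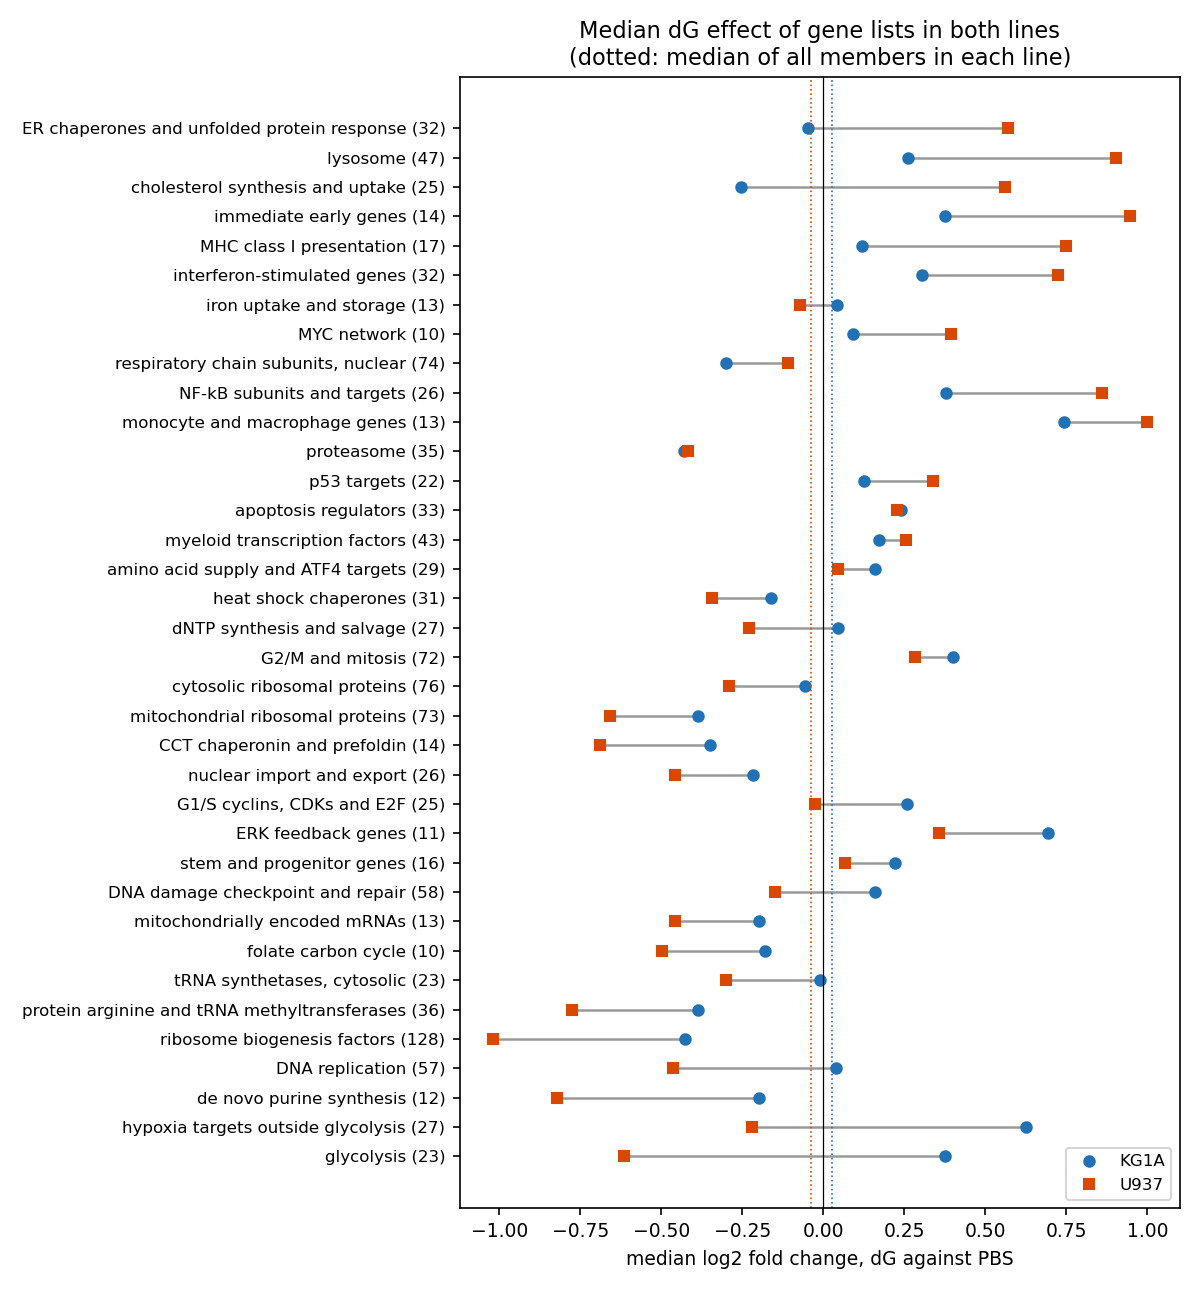
Median log2 fold change of dG against PBS in KG1A (blue circles) and U937 (orange squares) for each list with 10 or more members (number in brackets), ordered by the median difference. ER chaperones and glycolysis stand at the ends (median differences 0.83 and -1.04), and the dotted lines mark the medians of all members (0.03 in KG1A and -0.04 in U937).

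Few maturation genes met the level rule in both lines: 13 of 58 monocyte and macrophage genes and 4 of 22 primary granule and neutrophil genes. Of the 13, 10 rose in KG1A and 12 in U937, and the difference was positive in 6 and negative in 6 (6 and 5 under each size factor). The rule averaged PBS and dG libraries, so a gene low in PBS could enter by rising in dG, as ITGAM did in KG1A. The counts of genes that rose are therefore partly set by the rule and are not read as a result. Of the 4 primary granule and neutrophil genes, 1 was more positive and 3 more negative. ITGAM, the CD11b integrin chain of mature myeloid cells, rose in KG1A from 1.65 and 1.61 CPM to 12.4 and 13.0 CPM and in U937 from 13.7 and 14.2 CPM to 81.1 and 81.3 CPM. Its log2 fold changes of 2.96 and 2.55 differed by -0.41 ± 0.17 (edgeR adjusted p = 0.046), a call that was lost with DESeq2's size factors (adjusted p = 0.144), with a replicate block (adjusted p = 0.0521) and without 7 of the 8 libraries in turn (adjusted p up to 0.235, without replicate 2 of U937 dG), and that turned positive on the log2(RPKM + 1) scale (0.91). ANXA1, a regulator of inflammation, was at 420 and 413 CPM in KG1A PBS and at 395 and 391 CPM in KG1A dG, and rose in U937 from 43.1 and 41.3 CPM to 188 and 182 CPM (2.21 ± 0.05). TNFRSF1B, a TNF receptor, rose in KG1A from 5.12 and 5.71 to 20.9 and 17.1 CPM and in U937 from 117 in both libraries to 141 in both (-1.54 ± 0.11). Among 43 myeloid transcription factors, 20 differences were positive and 18 negative (20 and 10 under each size factor). CEBPB, a driver of monocyte maturation, lay at 22.3 and 24.2 CPM in KG1A PBS and at 26.5 and 25.1 CPM in KG1A dG, a change that was not called, and rose in U937 from 65.3 and 58.1 CPM to 236 and 229 CPM (1.76 ± 0.08). Among 16 stem and progenitor genes, 9 differences were negative and 4 positive (7 and 4 under each size factor). LMO2 and LYL1, factors of blood progenitors, rose in KG1A and fell in U937 (-0.88 ± 0.06 and -1.04 ± 0.06), while HOXA9 rose in U937 (0.65 ± 0.05).

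In some genes called in both lines no difference was called. TNFAIP3, an inhibitor of NF-kB signalling, rose in KG1A from 34.3 and 31.2 CPM to 99.5 and 101 CPM and in U937 from 49.3 and 50.03 CPM to 150 and 147 CPM. The difference was -0.04, with a 95% interval of -0.18 to 0.10. ATG16L2 rose by 1.52 in both lines (interval of the difference -0.19 to 0.19) and KIFC2, a kinesin, by 1.39 in both (-0.27 to 0.26). Among genes that fell, DANCR, a noncoding RNA, changed by -1.05 in KG1A and -0.99 in U937 (interval of the difference -0.10 to 0.23), though on the log2(RPKM + 1) scale its difference of 0.26 was called (limma adjusted p = 0.00422). OPN3 changed by -1.26 and -1.14 (-0.22 to 0.46). MILR1, an inhibitory receptor, rose by 2.20 and 2.55, but its interval of -0.05 to 0.74 allows a larger effect in U937, and without replicate 2 of U937 dG its difference was 0.54 and called (edgeR adjusted p = 0.0365). That no difference was called in 1812 members at this depth does not show that their effects are equal.

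The difference also varied with what kind of transcript was measured. By quintile of exon length, the shortest members (66 to 2513 bases) had 19.6% more positive and 38.0% more negative differences, and the longest (8034 bases or more) had 31.6% and 37.2%. Median effects of dG were higher in longer transcripts in both lines, from -0.13 to 0.14 in KG1A and from -0.25 to 0.13 in U937. By quintile of mean level, the lowest had 17.2% more positive and 31.6% more negative differences and the highest 31.9% and 45.5%. The part of length, level and counting precision in these differences was not tested.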

How the data were processed

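RNA was sequenced in 8 libraries, 2 in each of 4 groups. Per the submitters' processing notes, bcl2fastq 2.18.0.12, TopHat2 and HTSeq 0.11.2 were used, with build hg38; the strand setting and the annotation are not given in the sources used here, so overlapping genes are uncertain. The authors deposited whole-number counts per gene and RPKM values. The deposited RPKM could be recomputed from the counts, in 100% of 127000 values to within 0.1%.

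Counts were tested with edgeR 4.0.16 (R 4.3.3): quasi-likelihood test, TMM factors, edgeR's expression filter, 4 group means, and Benjamini-Hochberg adjustment over all 18314 genes tested at 0.05. CPM values were computed from the counts and TMM factors. Fold changes are log2, with standard errors worked back from the fold change and the F statistic of the test. The deposited RPKM were tested with limma 3.58.1 on log2(RPKM + 1) and with a pseudocount of 0.1. The test was checked on simulated counts, where it recovered most changed genes but the estimated TMM factors shifted all differences downward. Other alternatives were DESeq2 1.42.0, other size factors, no filter, other level thresholds, a replicate block and leaving out each library.

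Named genes were the 12 largest called differences each way, the 8 opposite calls and 6 shared calls each way whose smaller absolute fold change of the lines was largest and up to 4 genes per list. Other named genes, such as list exceptions, were chosen after their values were seen. The members and the 45 gene lists were chosen with earlier results of these data known. Of 1587 distinct listed genes 1 was not matched, and 1233 were members. For the lists not described in the report, more positive and more negative differences in U937 follow, with those under each size factor in brackets. Over all members these were 26.3% and 38.6% (25.5% and 26.9%). Amino acid supply and ATF4 targets had 9 and 13 of 29 (9 and 12), and polyamine synthesis 3 and 3 of 8 (3 and 2). Pyrimidine synthesis had 3 and 5 of 9 (3 and 3), and the folate cycle 2 and 6 of 10 (2 and 5). The pentose phosphate pathway had 3 and 3 of 7 (3 and 1), and the proteasome 13 and 9 of 35 (13 and 9). Apoptosis regulators had 12 and 12 of 33 (12 and 7), and nuclear transport 5 and 15 of 26 (5 and 13). Few or no genes were members in the lists of erythroid (3), lymphoid (2), histone (0) and fibroblast or epithelial genes (0). Promoter windows came from RefSeq (GRCh38.p14) and matched 5068 of 9922 members by symbol or ID. The motifs for ER stress and sterol response were added after the others, and the printed promoters were chosen after their matches were seen. The sterol motif TCACNCCAC was found in 1 of 15 windows of cholesterol genes and in 1.07% of members' windows. Of the 12 largest negative differences 6 had a window, and none of these held any motif searched. Of the 12 largest positive ones 7 had a window. GAANNTTC was in 2 of these, ACGTG in 2, CACGTG in 1 and the AP-1 motif TGANTCA in 1. Results for some genes are not reported here.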

Additional observations from a re-analysis of the deposited data

Results flagged for a closer look

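Each called difference is itself a test of an interaction between dG and the line. In the fit as designed it was called in 6442 members (edgeR, adjusted p below 0.05), and 1154 of them were called in opposite directions. Under each of the 11 size factors, 2527 were more positive, 2671 more negative and 730 called in opposite directions. edgeR's common coefficient of variation between libraries of a group was 2.51%. Nothing states that these were separate cultures, so the counts describe these libraries. The values here are for 16 of these opposite calls, the 8 each way in which the smaller of both absolute fold changes was largest, given as the effect in U937 minus that in KG1A on the log2 scale. Among genes that fell in KG1A and rose in U937, HMGCS1 differed by 2.42, ZSCAN5A by 2.35, HSPA5 by 2.28, PKIG by 1.85, RPL22L1 by 1.58, FBXO10 by 1.57, CCDC69 by 1.52 and SYNGR2 by 1.40. Among genes that rose in KG1A and fell in U937, PFKFB4 differed by -3.70, RYR2 by -3.50, LTBP1 by -2.88, NCAM1 by -2.66, ETV5 by -2.62, BNIP3 by -2.50, MARCKSL1 by -2.43 and CENPBD1 by -2.19. With 2 libraries in each group, single libraries could not be checked for standing apart within their group.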

How the results depend on the processing

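Of 201 named genes, 189 kept their side of the threshold under all 19 settings and did not reverse where called. The other 12 changed in at least 1 setting. Differences not called could change sign and still count among the 189, as TNFAIP3 did (-0.04, and 0.06 with DESeq2's size factors). TMM factors with other reference libraries were not among these settings. The difference of ITGAM (-0.41) turned to 0.91 on the log2(RPKM + 1) scale with or without the filter on low genes and to 0.026 with a pseudocount of 0.1 (limma adjusted p = 0.847), and that of TCIRG1 turned to 0.29. The count of members with a more negative effect in U937 (3830) moved to 2259 in RPKM with no filter and to 2550 without replicate 2 of U937 dG. Leaving out each library in turn gave 2357 to 3257 more positive and 2550 to 3789 more negative members, 966 to 1083 opposite calls and 1771 to 1956 shared ones. The DESeq2 Wald test called 2874 more positive and 2607 more negative, with 814 opposite calls, and no filter gave 3325 and 2659. Of the 760 list medians relative to all members, 63 moved by more than their bound and 697 did not, while the list counts moved by over 1.5 times in 103 cases for more negative and 58 for more positive members. Nothing states that replicate numbers pair the libraries. Correlations of replicate differences across members ran from -0.195 to 0.104, which cannot settle it, as each group gives only 1 such difference. With the replicate block the counts were 2588 more positive and 3812 more negative, and with the replicate block within each line 2527 and 3728. Low counts limit genes near 4 CPM, and the sign of small differences depends on the size factors.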

Other observations

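A few gene families outside the lists were looked up after their values had been seen, so their counts describe these libraries only. Over all members 26.3% were more positive and 38.6% more negative in U937 (25.5% and 26.9% under each size factor). Of 11 host genes of small nucleolar RNAs, 9 had a more positive effect in U937 and none a more negative one, also under each of the 11 size factors. In KG1A 9 of them fell and none rose, while in U937 5 rose and 4 fell. SNHG12 changed by 0.03 in KG1A, which was not called, and rose by 1.44 in U937, and SNHG8 changed by -0.24 and 0.93.

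Of 44 genes of vesicle transport between the endoplasmic reticulum and the Golgi (COPI, COPII, SEC, ARF and TMED genes), 35 had a more positive effect in U937 and 2 a more negative one, 34 and none under each size factor. They rose in 14 cases and fell in 16 in KG1A, and rose in 37 and fell in 3 in U937, with a median difference of 0.46 against -0.09 over all members. ARF4, a small GTPase of the Golgi, changed by -0.21 in KG1A and 0.94 in U937, and TMED3, a cargo receptor, by -0.68 and 0.30. Among 14 subunits of the proton pump that acidifies lysosomes, 11 differences were positive and 2 negative (11 and 1 under each size factor). Of 20 nucleoporins, 16 differences were negative and 1 positive, but 11 and 1 under each size factor. Of 39 RAB GTPases, 18 were positive and 7 negative (18 and 5). Splicing genes had 12 and 36 of 65 (11 and 29), and translation initiation factors 10 and 27 of 50 (10 and 20). Zinc finger genes named ZNF had 55 and 75 of 255 (54 and 54).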
